A study of Mus musculus with 6 samples.

Results

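The genes described here bring cholesterol into cells and move it inside them: Npc1l1, Scarb1, Lrp1, Lrpap1, Lipa, Npc1, Npc2, Stard3, Soat1 and Soat2. They were taken as the genes whose RefSeq accession names at least 1 non-control probe of a mouse liver microarray, which gave 10 of 37074 genes and 12 of 55681 probes. Liver RNA of L1-Tg mice was compared with that of wild-type (WT) mice on 3 arrays each, and both groups were male and fed a control fat diet (CFD). L1-Tg mice were hemizygous for a transgene that expresses human NPC1L1 in hepatocytes under the APOE promoter, from the line B6;D2-Tg(APOE-NPC1L1)20Lqyu/J, and the WT mice were their littermates without it. The line is a single transgenic line that had been backcrossed to C57BL/6J for at least 8 generations, and both groups kept their own mouse Npc1l1. Each array held the pooled RNA of 2 or 3 mice, so that errors given here are between pools and not between animals, and the labels give no age for the pooled mice.

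NPC1L1 is a membrane protein that takes free cholesterol from the intestinal lumen and, in human liver, back from bile, whereas mouse liver makes little of it. Cholesterol carried by lipoproteins enters hepatocytes through SR-BI, the product of Scarb1, which takes up cholesteryl ester from high-density lipoprotein, and through endocytic receptors such as LRP1, whose folding is assisted by the chaperone RAP, the product of Lrpap1. In lysosomes the acid lipase encoded by Lipa frees the cholesterol, NPC2 and NPC1 pass it out, STARD3 moves it between endosomes and the endoplasmic reticulum, and the enzymes encoded by Soat1 and Soat2 store it as ester.

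Levels are given as the log2 of the processed spot signal minus the log2 of the 75th percentile of its array, so that 0 is that percentile and 1 unit is a 2-fold change. They were compared only between pools for the same probe, because probes differ in brightness at the same amount of RNA. That percentile lay between 296 and 378 intensity units, and each array had between 53.1% and 59.2% of its spots well above background and 0 saturated. A gene was tested where the spots of its brightest probe stood well above background throughout at least 1 genotype, on 3 of 3 arrays. This held for 22342 genes and for 9 of the 10 described here, all but Npc1l1. The 6 arrays lay on 1 slide with each genotype in its own row, so row and genotype cannot be told apart. All 10 hepatocyte markers passed this filter, and 1 of 7 enterocyte markers did, Fabp2, whose log2 difference was -0.56 (limma adjusted p = 0.576). Of the other enterocyte markers, Sis and Vil1 were well above background on 1 array each and Alpi, Cdh17, Cdx2 and Lct on 0. In whole liver RNA, fewer cells of a type and less RNA per cell cannot be told apart.

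None of the uptake and trafficking genes passed the limma test at a Benjamini-Hochberg adjusted p of 0.05 (0 of 9), a threshold that 0.130% of all genes tested passed. Scarb1 was the 1 gene of the 9 with an unadjusted p under 0.05, where 8.88% of all genes had one. The methods' t-test without moderated variances also gave 0 genes after adjustment and 1 before it, and its share over all genes is not given here. Of the 9 genes, 7 had a lower mean in L1-Tg mice and 2 a higher one, against 57.2% lower over all genes tested. The median log2 difference of the 9 genes was -0.08, beside -0.03 over all genes, and with array median scaling both were above 0, at 0.03 and 0.08. The pools of the genotypes did not overlap for 2 of the 9, Scarb1 and Lrp1, both lower in L1-Tg mice. Over all genes tested the pools did not overlap for 15.9%, with 8.71% lower and 7.21% higher. The difference index of the study's methods, the difference of the means divided by the sum of the SDs on the linear scale, was past 0.7 for 3 of the 10 genes, Npc1l1, Scarb1 and Lrp1, all lower in L1-Tg mice. The index passed for 30.3% of all genes on the array, with 21.7% lower and 8.61% higher. That share covers dim genes that were not tested and array targets without a gene symbol. Of the 10 genes, 9 were tested. With array median scaling 6.75% of all genes were lower and 14.0% higher past the index, and Lrp1 was not past it (-0.22). With the authors' normalized intensities 4 of the 10 genes were past it, Npc2 being the fourth and higher in L1-Tg mice (0.83), beside 29.3% of all genes. Npc2 was also past it after quantile normalization, with the normexp background correction and where either L1-Tg replicate 1 or WT replicate 3 was left out. Of all genes, 22.1% to 40.9% were past it in these settings. Npc1l1 was not past it with normexp (-0.41). Without L1-Tg replicate 3 the index was past 0.7 for 5 genes, with Soat1 and Stard3 in addition, beside 33.8% of all genes in the same setting.

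**Figure D1:**
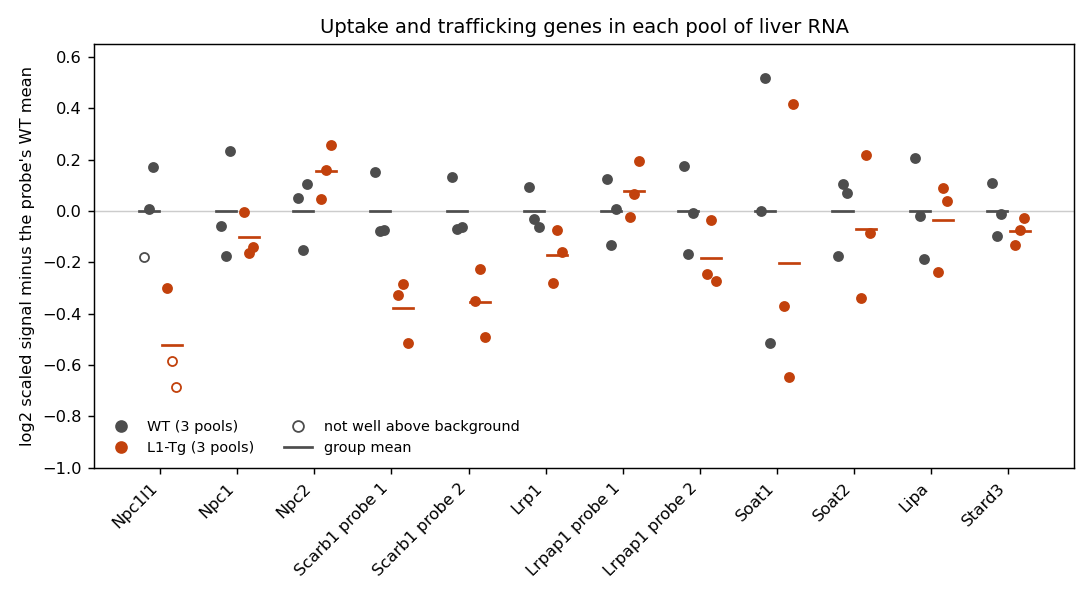
Log2 scaled signal of each probe in each pool, minus the mean of the 3 WT pools for that probe (vertical axis, log2 units), with L1-Tg pools in orange, WT pools in grey, open circles for spots not well above background and lines at group means. The pools of the genotypes stand apart for Npc1l1, both probes of Scarb1 and Lrp1, and overlap for the other probes.

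**Figure D2:**
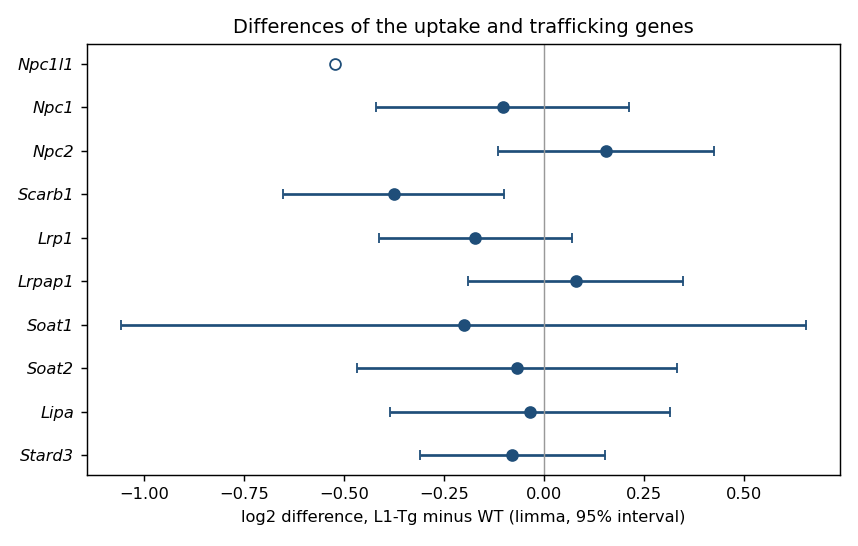
Log2 difference of L1-Tg minus WT mice for each gene (horizontal axis), with bars at the 95% interval of the limma fit and an open circle without a bar for Npc1l1, which was not tested. The interval of Scarb1, -0.65 to -0.10, is the only one of the 9 that leaves out 0.

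Mouse Npc1l1 lay close to the background of the array in both genotypes. Its processed signal was 24.4, 15.7 and 16.6 intensity units in L1-Tg pools 1, 2 and 3 and 22.1, 25.1 and 30.3 in WT pools 1, 2 and 3. The spot was well above background in 1 L1-Tg pool, the first, and in 2 WT pools, the second and the third, so that most of these values are near what the scanner can separate from an empty spot. After scaling, the log2 levels were -3.95, -4.24 and -4.34 in L1-Tg mice and -3.84, -3.65 and -3.48 in WT mice. All 3 L1-Tg pools were then below all 3 WT pools, with a log2 difference of -0.52. Before scaling the first L1-Tg pool was above the first WT pool. An exact permutation test on the scaled values (two-sided, 3 against 3 pools) gave p = 0.10, the smallest p that this design allows. Where no filter on dim probes was set, limma gave the difference a standard error of 0.16 and an adjusted p of 0.555. With a normexp background correction the difference was -0.06. Of the enterocyte markers well above background on 0 arrays, Cdx2 and Cdh17 had all 3 L1-Tg pools below all 3 WT pools after scaling. Alpi and Lct overlapped. The spots of Cdx2 and Cdh17 gave less signal than that of Npc1l1, with log2 levels between -6.84 and -6.00. What lies behind the separation of Npc1l1 was not tested.

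**Figure D3:**
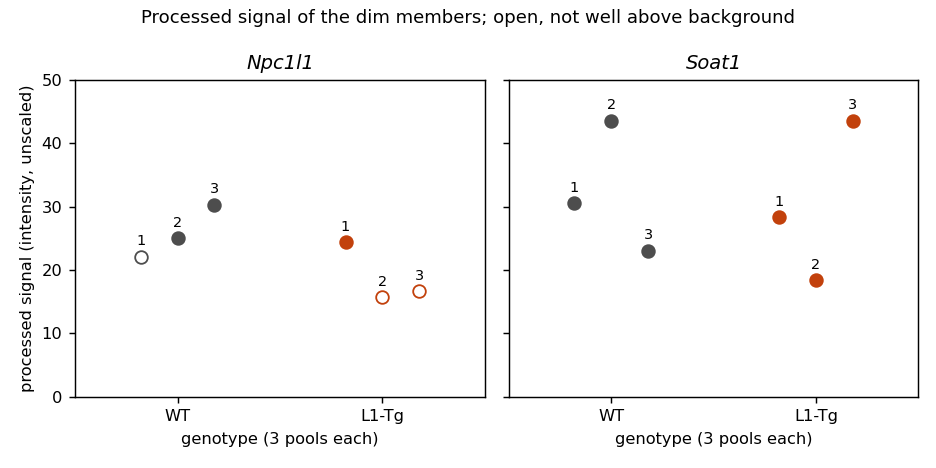
Processed signal in intensity units, not scaled between arrays (vertical axis), of the dim genes Npc1l1 and Soat1 in the 3 pools of each genotype, numbered by replicate, with open circles for spots not well above background. Npc1l1 reaches 30.3 at most, in WT pool 3, and Soat1 spans 18.4 to 43.6 in L1-Tg mice and 23.0 to 43.6 in WT mice.

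The human transgene was not measured here by a probe of its own: probes were matched to mouse genes only, and the sequence of the mouse probe was not used. Whether the human transcript binds the mouse Npc1l1 probe was not tested, so the level of that probe checks neither the presence of the transgene nor the genotype labels.

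The mouse gene and the transgene are read from different promoters, and the 250 bases ahead of the mouse gene's start are shown for that reason beside those of Stard3, the 1 gene of the 7 searched in which a sterol regulatory element word was found. The promoters of Scarb1, Soat2 and Npc1 were not searched here. Capitals mark the CCAAT box, read on the opposite strand, in Npc1l1 and the word TCACNCCAC in Stard3. The Npc1l1 stretch is chr11:6230246-6230495 on the minus strand and the Stard3 stretch is chr11:98358118-98358367 on the plus strand, both in GRCm38.p6.
Npc1l1: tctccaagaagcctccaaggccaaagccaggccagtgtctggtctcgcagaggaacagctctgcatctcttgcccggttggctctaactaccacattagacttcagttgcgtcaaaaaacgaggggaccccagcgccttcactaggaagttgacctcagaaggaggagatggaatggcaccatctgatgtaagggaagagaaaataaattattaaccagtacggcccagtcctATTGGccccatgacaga
Stard3: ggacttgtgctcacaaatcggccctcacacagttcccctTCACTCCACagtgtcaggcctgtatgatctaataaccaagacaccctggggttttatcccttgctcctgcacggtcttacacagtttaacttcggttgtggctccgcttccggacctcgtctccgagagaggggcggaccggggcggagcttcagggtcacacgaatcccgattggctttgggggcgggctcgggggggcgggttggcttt
Both strands were searched, and TCACNCCAC, the pattern of the sterol regulatory element in genes such as the low-density lipoprotein receptor, was in 1.05% of 32851 promoters of the same length. The CCAAT box is a common promoter element, present in 33.8% of promoters. It was found in Npc1l1, Soat1, Npc2, Lipa and Stard3, and the GC box GGGCGG, in 32.7% of promoters, in Lrp1, Lrpap1, Npc2 and Stard3. The E-box CACGTG, in 6.02% of promoters, was found in 0 of the 7. A match of letters does not show that a factor binds there.

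Among the 9 tested uptake and trafficking genes, Scarb1, the receptor for high-density lipoprotein, had the largest difference relative to the spread between pools. Its brighter probe measured log2 levels of 4.48, 4.52 and 4.29 in L1-Tg pools and 4.96, 4.73 and 4.73 in WT pools. The dimmer probe, named by the same accession, measured 1.16, 1.28 and 1.02 in L1-Tg pools and 1.64, 1.44 and 1.45 in WT pools. On both probes every L1-Tg pool was below every WT pool, and the lowest L1-Tg value was that of replicate 3 and the highest WT value that of replicate 1. The log2 difference of the brighter probe was -0.38 (standard error of the difference, SE, 0.11, unadjusted p = 0.0153, limma adjusted p = 0.481), which puts L1-Tg mice at 0.770 of the WT level with a 95% interval of 0.636 to 0.933. For the dimmer probe the log2 difference was -0.36 (SE 0.11, limma adjusted p = 0.506 over all probes). Both probes read the same RNA pools and are not replicates of each other. The absolute log2 difference of Scarb1 was larger than that of 85.7% of the genes tested. Scarb1 was lower in L1-Tg mice in all 16 alternatives to the processing, with a log2 difference between -0.42 and -0.27. The adjusted p ran from 0.331 to 0.935, and the pools overlapped where the arrays were not scaled. Its unadjusted limma p was 0.0758 with array median scaling, 0.0813 with no scaling and 0.0568 without L1-Tg replicate 3. The filters on dim probes, the methods' t-test and the replicate block cannot change the estimate of -0.38. Array median scaling, no scaling and the authors' matrix differ from the reported scaling by 1 constant per array. Every alternative reuses these pools, so the 16 are not independent of each other.

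**Figure D4:**
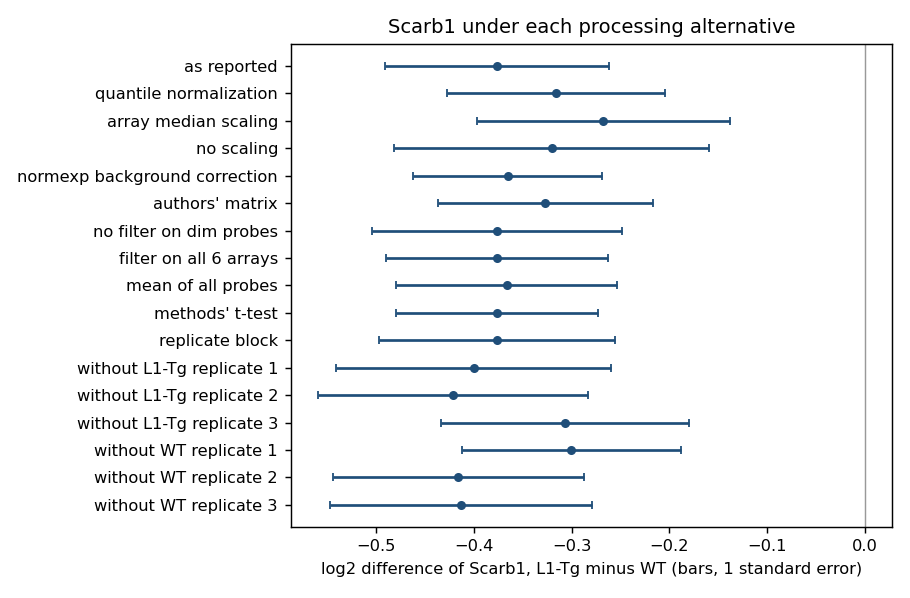
Log2 difference of Scarb1, L1-Tg minus WT mice (horizontal axis), as reported and under 16 alternatives in scaling, background correction, probe choice, test or pools used, with bars of 1 standard error. Every estimate is below 0, from -0.42 without L1-Tg replicate 2 to -0.27 with array median scaling. The filters, the t-test and the replicate block cannot move the estimate, and all alternatives share the same pools.

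Lrp1, an endocytic receptor that takes up remnants of triglyceride-rich lipoproteins, was the other of these 9 genes whose pools stood apart. Its log2 levels were 3.94, 4.14 and 4.06 in L1-Tg pools and 4.31, 4.19 and 4.15 in WT pools. The highest L1-Tg pool and the lowest WT pool were nearly equal. Its log2 difference was -0.17 (SE 0.10, limma adjusted p = 0.631), or 0.888 of the WT level with a 95% interval of 0.751 to 1.05. The groups overlapped with array median scaling and with no scaling. Lrpap1, whose product keeps LRP1 from binding ligands too early, was measured by a pair of probes whose differences had opposite signs, and pools overlapped on both. The brighter probe read 2.49, 2.58 and 2.70 in L1-Tg pools and 2.63, 2.38 and 2.52 in WT pools, a log2 difference of 0.08 (SE 0.11, limma adjusted p = 0.823). The dimmer probe read 1.41, 1.62 and 1.38 in L1-Tg pools and 1.83, 1.49 and 1.65 in WT pools, a log2 difference of -0.18 (limma adjusted p = 0.674 over all probes). No direction can therefore be given for Lrpap1.

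The pools of the genotypes overlapped for each of the lysosomal genes and for Stard3. Lipa, the acid lipase that splits cholesteryl ester, had log2 levels of 3.10, 3.43 and 3.37 in L1-Tg pools and 3.54, 3.32 and 3.15 in WT pools, and the lowest and the highest pool were in different genotypes. Its log2 difference was -0.04 (SE 0.14, limma adjusted p = 0.948), with a 95% interval of 0.766 to 1.24 times the WT level. Npc2, the soluble carrier that takes free cholesterol to NPC1, had levels of 3.53, 3.64 and 3.74 in L1-Tg pools and 3.53, 3.33 and 3.58 in WT pools. It was 1 of the 2 genes with a higher mean in L1-Tg mice, by a log2 difference of 0.15 (SE 0.11, limma adjusted p = 0.674). Without L1-Tg replicate 1 its pools stood apart, in a comparison with fewer pools, where groups separate more easily. Its interval ran from 0.923 to 1.34 times the WT level. Npc1, the lysosomal membrane protein that exports the cholesterol, had levels of 1.84, 1.68 and 1.70 in L1-Tg pools and 1.78, 1.67 and 2.08 in WT pools. WT replicate 3 was above the other pools, and the log2 difference of -0.10 (SE 0.13, limma adjusted p = 0.804) was 0.01 without it. Stard3, the late endosomal sterol transfer protein whose promoter is shown above, had the smallest spread of the L1-Tg pools, with levels of 2.71, 2.77 and 2.82 beside 2.95, 2.75 and 2.83 in the WT pools. Its log2 difference was -0.08 (SE 0.10, limma adjusted p = 0.792), and its interval of 0.807 to 1.11 times the WT level was, on the log2 scale, the narrowest of the 9 genes.

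The esterification enzymes were measured with unlike precision. Soat2, the enzyme that makes cholesteryl ester in hepatocytes for storage and for lipoproteins, had log2 levels of 3.39, 3.95 and 3.65 in L1-Tg pools and 3.56, 3.84 and 3.80 in WT pools. Both the lowest and the highest of the 6 pools were L1-Tg, and the log2 difference was -0.07 (SE 0.17, limma adjusted p = 0.902), with an interval of 0.723 to 1.26 times the WT level. Soat1, the form found in macrophages and many other cells, was dim, although its spot was well above background in all 6 pools. Its processed signal was 28.3, 18.4 and 43.6 intensity units in L1-Tg pools and 30.5, 43.6 and 23.0 in WT pools. A bright and a dim pool occurred in each genotype, and the log2 difference of -0.20 (SE 0.35, limma adjusted p = 0.859) carried an interval of 0.481 to 1.58 times the WT level.

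Partners of these genes were described by 4 lists, of which 71 of 77 genes were tested and 0 passed the adjusted threshold in limma, the smallest adjusted p being 0.194. The methods' t-test also called 0 after adjustment and 7 at an unadjusted p under 0.05, where limma had 6. The share of all genes under that t-test is not given here, so the 7 cannot be set against a background. Of the 71 genes, 37 had a higher and 34 a lower mean in L1-Tg mice, and the median log2 difference was 0.01. At an unadjusted p under 0.05 there were 4 higher genes, where 4.51% of all genes tested were higher, and 2 lower ones, where 4.38% were lower.

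Among 20 tested lipoprotein receptors and their partners, 11 had a higher and 9 a lower mean, with a median of 0.02. Cd36, a scavenger receptor for oxidized lipoproteins and a fatty acid transporter, had log2 levels of 1.70, 1.03 and 1.79 in L1-Tg pools and 0.35, -0.69 and 0.41 in WT pools. Its log2 difference was 1.48 (SE 0.35, unadjusted p = 0.00475, limma adjusted p = 0.372), the largest of the 4 lists, and the pools did not overlap. Lipc, hepatic lipase, which acts on the lipoproteins that SR-BI and LRP1 take up, read 1.46, 1.43 and 1.30 in L1-Tg pools and 1.75, 1.77 and 1.58 in WT pools, a log2 difference of -0.31 (limma adjusted p = 0.504). Sort1, a sorting receptor, had a log2 difference of 0.22 on its brighter probe and -0.36 on the other, so that its direction depends on the probe.

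The endocytosis and recycling factors of NPC1L1, which carry the protein between the plasma membrane and its recycling compartment, had 7 higher and 7 lower means among 14 tested genes and 0 at an unadjusted p under 0.05. The smallest p belonged to Flot1, a membrane raft protein, with a log2 difference of 0.29 (unadjusted p = 0.0531, limma adjusted p = 0.561). Ap2a1, a subunit of the clathrin adaptor, had a log2 difference of -0.22 and Cdc42, a small GTPase, one of 0.19 on its brighter probe and 0.08 on the other, and both genes had a limma adjusted p over 0.05.

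Among 17 tested late endosome and lysosome genes, 7 had a higher and 10 a lower mean, with a median of -0.02. Ctsd, the lysosomal protease cathepsin D, read 5.91, 5.99 and 6.12 in L1-Tg pools and 5.73, 5.61 and 5.84 in WT pools, a log2 difference of 0.28 (SE 0.11, unadjusted p = 0.0385, limma adjusted p = 0.546). Slc38a9, a lysosomal amino acid transporter, had 3 probes with log2 differences of -0.22, -0.08 and 0.06, so that its direction depends on the probe. Vps35, a retromer subunit, had a log2 difference of 0.17, and the brightest probe of Slc38a9 and that of Vps35 each had an unadjusted p over 0.05.

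The 20 tested sterol transfer proteins had 12 higher and 8 lower means, with a median of 0.03. Gramd1b, which carries cholesterol from the plasma membrane to the endoplasmic reticulum, had log2 levels of -2.89, -2.82 and -2.35 in L1-Tg pools and -3.75, -3.68 and -3.63 in WT pools. Every L1-Tg pool was above every WT pool, and the log2 difference was 1.00 (SE 0.16, unadjusted p = 6.2e-04, limma adjusted p = 0.194). Its signal was low, and with the normexp background correction the difference was 0.32. Stard3nl, a late endosomal relative of Stard3, had a log2 difference of 0.41 (SE 0.14, limma adjusted p = 0.519). Star, the mitochondrial cholesterol carrier of steroid-producing cells, had a log2 difference of -0.68 (limma adjusted p = 0.519) on its brighter probe and of -0.10 on the other, which was too dim to be tested. With normexp the brighter probe gave -0.23, and the pools overlapped.

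**Figure D5:**
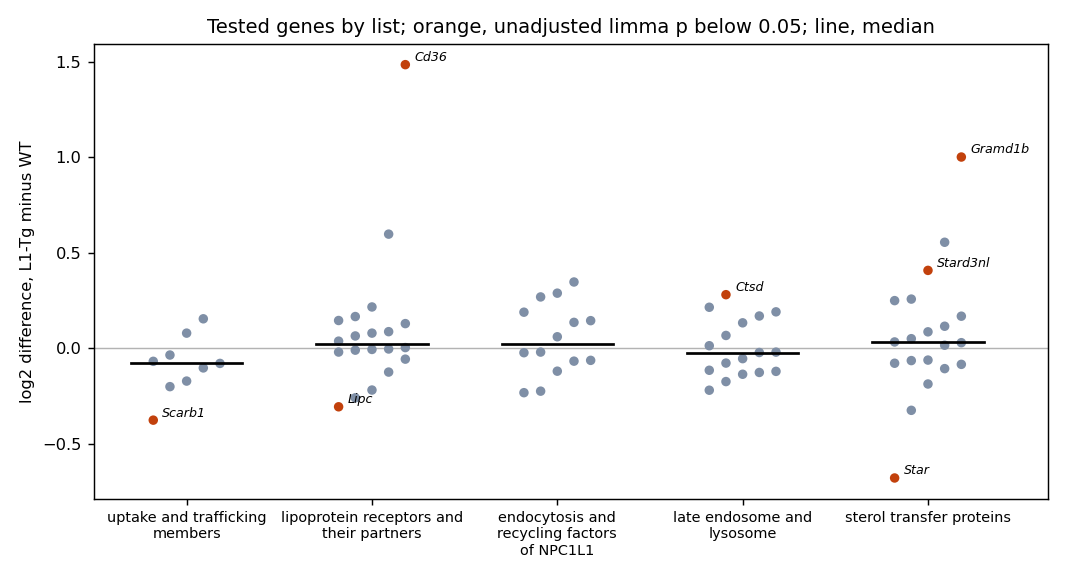
Log2 difference of L1-Tg minus WT mice (vertical axis) for the tested genes of each list, with a point per gene, orange for an unadjusted limma p under 0.05 and a line at the median of the list. The medians lie between -0.08 and 0.03, with Cd36 at 1.48 and Gramd1b at 1.00 farthest from 0.

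Tested markers of liver cell types were 10 of hepatocytes, 10 of Kupffer cells, 7 of endothelial cells and 5 of cholangiocytes. Of these 0 passed the adjusted threshold in limma and 3 had an unadjusted p under 0.05, where 8.88% of all genes tested had one. The part of these markers in the values above was not tested. Of the hepatocyte markers 9 of 10 had a lower mean in L1-Tg mice, with a median log2 difference of -0.16, the 3 being Apoa1, Ass1 and Pck1, and their summed linear level was 5658 to 6888 in L1-Tg pools and 6518 to 7015 in WT pools. All 10 tested Kupffer cell markers had a higher mean, with a median of 0.33 and 0 at an unadjusted p under 0.05 in limma, and their sum was 172 to 201 in L1-Tg pools and 109 to 199.8 in WT pools. Of the 7 liver endothelial cell markers 5 were higher, with a median of 0.10. The 5 tested cholangiocyte markers had a median of -0.03. Scarb1, Lipa, Npc2, Lrp1, Cd36 and Ctsd are made by hepatocytes as well as by macrophages and endothelial cells, and the cell type behind each signal is unknown.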

How the data were processed

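The authors hybridized Cy3-labeled cRNA of pooled liver RNA to 1-color arrays and read them with Agilent Feature Extraction 10.10.1.1. The deposited processed signal of a spot is a linear intensity from which the software had removed the background, with no scaling between arrays. The deposited marks of 0 or 1 for spots well above background, saturated or non-uniform were used as given, and non-uniform spots were treated as missing. The authors also deposited a matrix of normalized intensities, obtained from the processed signals with a single factor for each array. The genotype in the labels set the groups.

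Control spots were left out and the spots of 432 repeated probes were averaged. Of 28685 probes with a RefSeq-type accession, 27235 were matched to a symbol through RefSeq, build GRCm38.p6, whose coordinates differ from the mm9 positions in the files and were used only for promoters. A probe without a matched symbol was counted under the name the array gives it, so the 37074 genes include targets without a symbol. Of several probes of a gene, the brightest on average stood for it. Log2 signals minus the 75th percentile of the array were compared by a two-sided limma test (version 3.58.1, R 4.3.3) with lmFit and eBayes, and p-values were adjusted by Benjamini-Hochberg over 22342 genes with a threshold of 0.05. Files were read with jsonlite 2.0.0 and with version 1.17.8 of data.table. The limma fit was tried on simulated data with independent noise for each probe and array, which cannot address the slide row or the pooling. The limma p-values set the difference of the genotypes against the spread between pools, moderated over all genes tested, and not against the spread between animals.

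All 10 genes are named with all probes, and of each list every gene past the adjusted threshold and the 3 with the smallest p. The members and lists were chosen with earlier results of these data known. The replicate number entered the fit only as an alternative. Alternatives were quantile normalization, array median scaling, no scaling, normexp with an offset of 50, the authors' matrix, other filters on dim probes, the mean of all probes, the methods' t-test, the replicate block and leaving out each array.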

Additional observations from a re-analysis of the deposited data

How the results depend on the processing

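In all 16 alternatives 0 of the uptake and trafficking genes and 0 of their partners passed the adjusted threshold in limma or in the methods' t-test, while the number of all genes called, 29 as reported, was 0 in the methods' t-test, 10 with no filter on dim probes, 11 with the replicate block and between 15 and 36 with 1 array left out. Array median scaling differs from the reported scaling by 1 constant per array. It therefore shifts the log2 differences of genes measured on all arrays alike. It moved the median of all genes from -0.03 to 0.08 and that of the 9 genes to 0.029. Relative to all genes this is -0.05, as before, which such a shift cannot change. Under that scaling the differences of Npc1 (0.0058), Soat2 (0.040), Lipa (0.073) and Stard3 (0.029) changed sign, and the groups did not overlap for 1 gene in place of 2. With no scaling they did not overlap for 0 genes and Lipa was at 0.020. Lipa was at 0.014 in the authors' matrix, and the mean of all probes gave -0.053 for Lrpap1 and -0.071 for Sort1. With 1 array left out, the number of genes that did not overlap was 2 to 3, and the share of all genes is not given here. Groups separate more easily with fewer pools. The number past the difference index was 3 to 5 of 10, beside 33.8% to 40.9% of all genes. The median of the genes was -0.13 to -0.04 in these settings. The log2 difference then ranged from -0.19 to 0.014 for Npc1, from -0.51 to 0.058 for Soat1, from -0.21 to 0.067 for Soat2 and from -0.13 to 0.067 for Lipa. What lies behind the shifts with 1 array left out was not tested.

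The replicate number was also the column of the array on the slide. Over all genes tested, samples with the same replicate number did not deviate together (r = -0.157, 0.111 and 0.0185 for numbers 1, 2 and 3). The numbers were therefore not taken to pair the pools. With the replicate block 0 of the 9 genes were called, and Scarb1 had a log2 difference of -0.38 with a limma adjusted p of 0.574. Cd36, lowest in replicate 2 of both genotypes, had a standard error of 0.13 and a limma adjusted p of 0.1005 with the block. Signal over background limits Npc1l1 and Soat1, whose spots were dim.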
